A study of Mus musculus with 16 samples.

Results

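The EGR, IER and NR4A immediate-early genes were followed in RNA-seq libraries of bone-marrow-derived macrophages (BMDM), which are macrophages grown from mouse bone marrow. The members came from a list of 10 genes (Egr1, Egr2, Egr3, Ier2, Ier3, Ier5, Nr4a1, Nr4a2, Nr4a3 and Srf), of which those with a row among the 9614 genes of the table were kept, whatever their values. This left 9 members, and Nr4a3 was not analysed here. The 16 libraries came from 3 WT and 3 NELF-B KO mice. BMDM were left untreated, were given 10 ng/ml of lipopolysaccharide (LPS, an outer membrane component of Gram-negative bacteria that TLR4 senses), or were given the same LPS dose with 100 nM of dexamethasone (Dex, a synthetic glucocorticoid), each for 1 h. WT mice were LysM-Cre:NELF-B wt/wt and KO mice were LysM-Cre:NELF-B fl/fl, so that both genotypes carried the Cre recombinase, which LysM regulatory sequences express in myeloid cells. In the KO, Cre removes the floxed exon 4 of Nelfb, the gene of a subunit of the negative elongation factor (NELF) that holds RNA polymerase II near the start of genes. All mice were male, of the C57BL/6 background and 8 weeks old by the labels. Within a genotype the mice are given the letters A, B and C here, in place of the animal numbers of the labels. Untreated libraries came from mice A and B (n = 2 per genotype), and LPS and LPS + Dex libraries from mice A, B and C (n = 3 per genotype). BMDM given Dex without LPS were not analysed here.

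Immediate-early genes are transcribed within minutes of a stimulus and need no new protein synthesis. Egr1, Egr2 and Egr3 encode zinc-finger transcription factors that bind a GC-rich element, and Nr4a1 and Nr4a2 encode orphan nuclear receptors that act as monomers, as dimers or with RXR. Ier3 encodes a regulator of cell survival, and Ier2 and Ier5 encode nuclear proteins of a shared family. Srf encodes the serum response factor, which binds CArG boxes and, with the ternary complex factors Elk1, Elk3 and Elk4, carries signals of the ERK kinases to many of these genes. In macrophages LPS activates ERK and NF-kB through TLR4, and Dex acts through the glucocorticoid receptor, a ligand-activated transcription factor.

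Levels are given as CPM (a gene's reads relative to the size of the library, as scaled by the authors) or their log2. In each library the deposited values corresponded to 25030934 to 49730083 reads. Nelfb lay between 5.59 and 6.21 log2 CPM in the 8 WT libraries and between 3.27 and 4.38 in the 8 KO libraries. Among the KO mice, mouse B kept the most, at 4.38, 4.21 and 4.22, and mice A and C lay between 3.27 and 3.53. The bearing of this difference on the genotype results was not tested. Of 10 macrophage markers 9 were analysed, and these summed to between 8677 and 14710 CPM in a library. They included Csf1r (11.36 to 11.93 log2 CPM), Itgam (9.31 to 10.82) and Cd68 (10.03 to 10.89). The lowest by median was Lyz2, at 4.30 to 6.33 log2 CPM. The neutrophil marker S100a8 lay between 2.45 and 5.38 log2 CPM, and the dendritic cell marker Ccr7 between -1.12 and 3.33. The fibroblast collagens Col1a1, Col1a2 and Col3a1 summed to between 46.9 and 138 CPM across the libraries, and their part in the results was not tested. The untreated library of WT mouse A stood apart, with correlations across genes of 0.830 to 0.909 with the other 15 libraries, which correlated with each other at 0.924 to 0.993.

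To show the DNA next to which these transcripts start, RefSeq promoter windows (GRCm38.p6, 250 bases before to 50 after the start) were searched on both strands for letters that SRF, CREB, EGR proteins, NR4A receptors, AP-1, NF-kB and the TATA-binding protein are known to bind. Windows were matched for 6 of the 9 members, namely Egr2, Ier3, Ier5, Nr4a1, Nr4a2 and Srf. A stretch before the start is printed for 5 of them, to show which elements lie beside members that responded differently to LPS and Dex. Capitals mark each match, on either strand, to the CArG box, the CRE core (TGACG), the full CRE (TGACGTCA), the AP-1 site (TGANTCA), the EGR site (GCGNGGGCG), the NBRE (AAAGGTCA), the NF-kB site or the TATA box (TATAAA). A full CRE also counts as CRE cores, and matches that overlap are printed as 1 run of capitals.
Srf: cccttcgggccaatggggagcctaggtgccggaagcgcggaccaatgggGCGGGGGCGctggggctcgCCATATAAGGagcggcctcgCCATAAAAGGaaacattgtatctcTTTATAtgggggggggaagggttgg
Egr2: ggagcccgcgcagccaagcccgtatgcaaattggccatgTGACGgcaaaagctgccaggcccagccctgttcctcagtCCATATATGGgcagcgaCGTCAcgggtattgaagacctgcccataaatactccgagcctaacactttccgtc
Nr4a1: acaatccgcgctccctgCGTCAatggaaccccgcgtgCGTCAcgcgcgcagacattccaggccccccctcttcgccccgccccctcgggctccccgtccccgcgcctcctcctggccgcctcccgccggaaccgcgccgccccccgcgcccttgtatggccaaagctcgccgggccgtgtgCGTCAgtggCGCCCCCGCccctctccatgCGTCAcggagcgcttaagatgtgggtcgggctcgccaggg
Nr4a2: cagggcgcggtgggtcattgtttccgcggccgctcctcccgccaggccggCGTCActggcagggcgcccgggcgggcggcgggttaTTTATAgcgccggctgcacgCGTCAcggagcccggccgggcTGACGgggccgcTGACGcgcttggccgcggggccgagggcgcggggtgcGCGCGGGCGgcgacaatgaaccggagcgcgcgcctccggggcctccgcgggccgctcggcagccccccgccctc
Ier3: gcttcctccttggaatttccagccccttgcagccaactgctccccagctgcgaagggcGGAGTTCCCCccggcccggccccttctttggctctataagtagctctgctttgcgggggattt

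The Srf stretch, chr17:46556176-46556312 on the minus strand, held a pair of CArG boxes at positions -82 to -73 and -62 to -53 from the start. A CArG box was found in 1.63% of 32851 mouse promoter windows of the same length. The Egr2 stretch, chr10:67537719-67537868 on the plus strand, held a CArG box at -72 to -63, with CRE cores at -111 to -107 and -55 to -51. It lies before 3 of 5 RefSeq starts of Egr2, and its positions are counted from the nearest of these. The Nr4a1 stretch (chr15:101266596-101266845, plus strand) and the Nr4a2 stretch (chr2:57124004-57124253, minus strand) held 4 CRE cores each, and each held an EGR site, at -60 to -52 in Nr4a1 and -74 to -66 in Nr4a2. CRE cores were found in 20.8% of windows and EGR sites in 5.55%. The Ier3 stretch (chr17:35821563-35821683, plus strand) held an NF-kB site at -92 to -83, a match found in 8.46% of windows. NF-kB sites outside the printed stretches lay across the start of Nr4a1 (-3 to 6, with the start as 0) and before another start of Egr2 (-117 to -107). Also outside them were a CArG box before a further start of Egr2 (-72 to -63) and a CRE core of Srf (-201 to -197). The Ier5 window held no match to these letters. The windows held no full CRE (1.79% of all windows), AP-1 site (7.81%) or NBRE (1.51%). The letters TATAAA, found on either strand in 13.6% of windows, were in those of Srf (-38 to -33) and Nr4a2 (-164 to -159). Both matches were on the strand opposite to the gene, so they are not shown to act as TATA boxes of these genes. Variants of these letters were not searched.

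Levels of different genes were compared as CPM per kilobase of exon (GENCODE vM21). In the untreated WT libraries the order of the mean levels was Ier3 (25.6 CPM per kilobase), Ier2 (22.2), Ier5 (15.8), Srf (7.07), Nr4a1 (3.45), Egr2 (1.72), Egr1 (1.70), Nr4a2 (0.523) and Egr3 (0.141). Ier3 and Ier2 overlapped between libraries in this order, as did Ier2 and Ier5, and Egr2 and Egr1. In the WT libraries with LPS, Egr1 was first (161 CPM per kilobase, range 140 to 178), followed by Ier3 (151, 126 to 202) and Ier2 (136, 90.2 to 165), whose ranges overlapped. Nr4a1 (45.3, 40.8 to 50.1), Egr2 (41.8, 34.5 to 49.1) and Ier5 (32.9, 26.0 to 42.7) formed a middle group that also overlapped. Srf (10.6, 9.25 to 11.9), Egr3 (3.21, 2.39 to 3.86) and Nr4a2 (0.997, 0.671 to 1.27) were the lowest and did not overlap each other. The KO libraries with LPS had the same first 4 genes, with Egr1 at 226, Ier3 at 223, Ier2 at 202 and Nr4a1 at 75.7 CPM per kilobase. Egr3 and Nr4a2 rested on few reads: Egr3 had 10 to 21 reads in the untreated libraries, and Nr4a2 had 35 to 334 reads over all libraries.

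**Figure D1:**
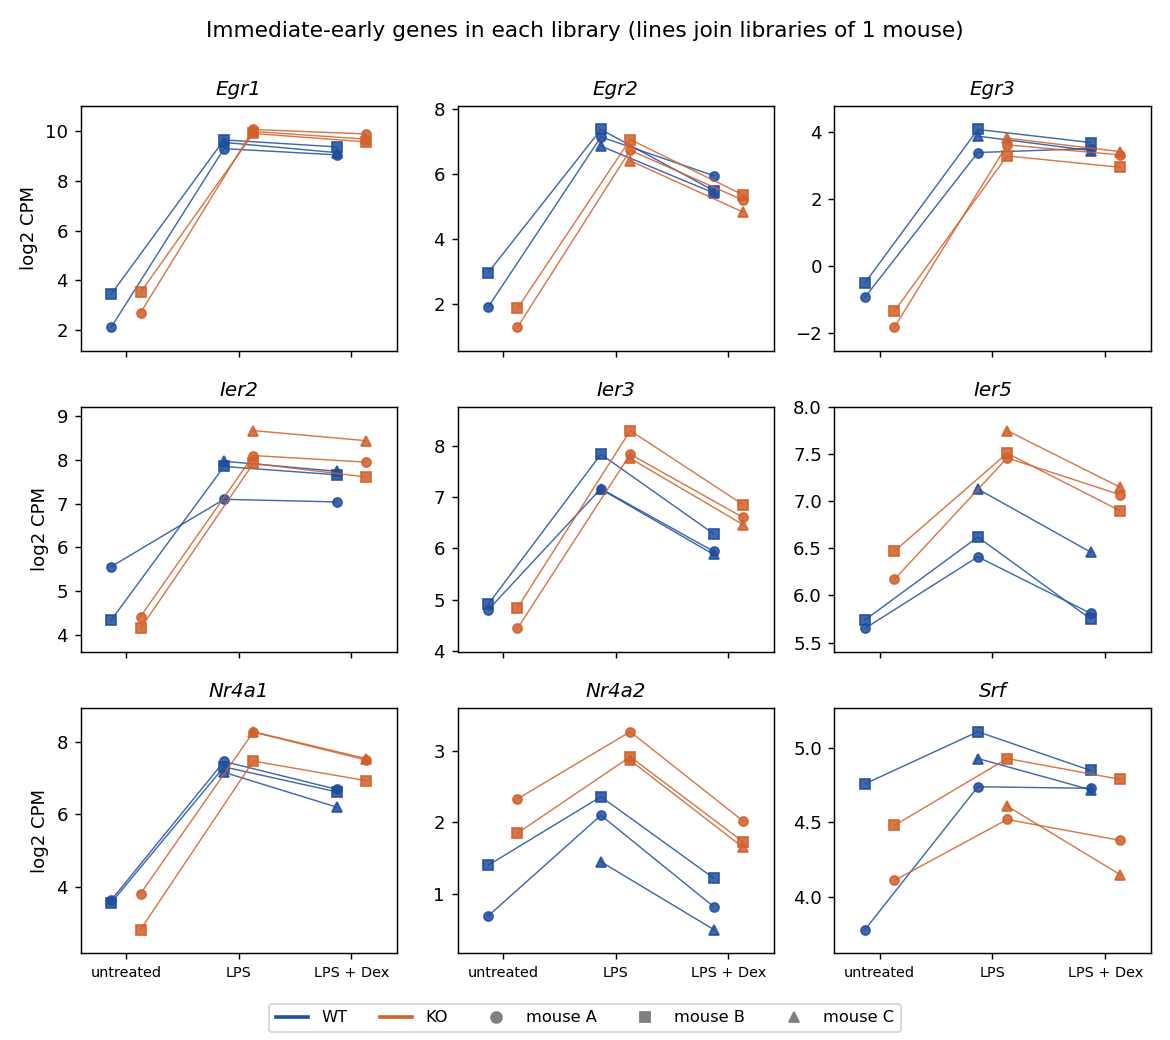
Level of each member (log2 CPM) in the 16 libraries by treatment, with WT in blue, KO in orange, a marker for each mouse and lines that join the libraries of 1 mouse. Egr1 sits between 9.04 and 10.06 in all 12 libraries with LPS, with or without Dex, whereas Nr4a2 with LPS + Dex (0.50 to 2.02) overlaps the untreated libraries (0.69 to 2.33).

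The first comparison asked which of these genes an hour of LPS raised, and in the WT 7 of the 9 rose. These were Egr1, Egr2, Egr3, Ier2, Ier3, Ier5 and Nr4a1, at an adjusted p under 0.05 in limma, and 4.63% of all genes rose by the same rule. The median change of the members was 2.69 on the log2 scale, beside 0.02 over all 9614 genes. In such bulk libraries, fewer cells that express a gene and less RNA of it per cell cannot be told apart.

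Among the EGR genes, Egr1 was at 2.12 and 3.45 log2 CPM in the untreated WT libraries of mice A and B, at 9.29, 9.64 and 9.54 with LPS in mice A, B and C, and at 9.04, 9.36 and 9.13 with LPS + Dex. In the KO it was at 2.70 and 3.52 untreated, at 10.06, 9.90 and 9.98 with LPS, and at 9.88, 9.56 and 9.67 with LPS + Dex. All libraries with LPS were far above all untreated ones. In the WT, LPS raised Egr1 by 6.71 on the log2 scale (SE 0.31, limma adjusted p = 1.06e-08), a 104.5-fold change. Without the untreated library of mouse A the rise was 6.04. Egr2 was at 1.92 and 2.98 log2 CPM in untreated WT libraries, at 7.15, 7.38 and 6.87 with LPS, and at 5.96, 5.50 and 5.43 with LPS + Dex. Its KO values were 1.30 and 1.88 untreated, 6.74, 7.07 and 6.42 with LPS, and 5.21, 5.37 and 4.84 with LPS + Dex. LPS and LPS + Dex libraries did not overlap in either genotype. In the WT, LPS raised Egr2 by 4.68 (SE 0.31, limma adjusted p = 3.97e-07), or 4.15 without the untreated library of mouse A. Egr3 lay between -0.92 and -0.49 log2 CPM untreated and between 3.40 and 4.09 with LPS in the WT, a rise of 4.50 (SE 0.26, limma adjusted p = 8.76e-08).

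Of the IER genes, Ier2 lay between 4.34 and 5.56 log2 CPM untreated and between 7.10 and 7.97 with LPS in the WT, with a rise of 2.69 (SE 0.38, limma adjusted p = 5.42e-04). The mice differed in this rise, with 1.54 for mouse A against 3.51 for mouse B, and mouse A had the highest untreated value. Without its untreated library the estimate was 3.30. Ier3 was at 4.80 and 4.91 log2 CPM in untreated WT libraries, at 7.16, 7.83 and 7.15 with LPS, and at 5.94, 6.28 and 5.88 with LPS + Dex. In the KO it was at 4.44 and 4.84 untreated, at 7.83, 8.29 and 7.75 with LPS, and at 6.60, 6.85 and 6.46 with LPS + Dex. In each genotype the 3 treatments did not overlap for Ier3, and LPS raised it by 2.53 in the WT (SE 0.23, limma adjusted p = 9.08e-06). Ier5 was at 5.65 and 5.74 log2 CPM in untreated WT libraries, at 6.41, 6.62 and 7.13 with LPS, and at 5.81, 5.75 and 6.46 with LPS + Dex. In the KO it was at 6.17 and 6.47 untreated, at 7.46, 7.51 and 7.75 with LPS, and at 7.07, 6.90 and 7.15 with LPS + Dex. The rise of Ier5 in the WT was the smallest of the 7, at 1.03 (SE 0.23, limma adjusted p = 0.0149). Its call did not hold without the untreated library of WT mouse A (change 0.98, limma adjusted p = 0.109) or without the LPS library of WT mouse C (0.82, limma adjusted p = 0.0552).

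The NR4A genes differed in size of response. Nr4a1 was at 3.63 and 3.56 log2 CPM in untreated WT libraries, at 7.46, 7.31 and 7.16 with LPS, and at 6.69, 6.62 and 6.20 with LPS + Dex. In the KO it was at 3.81 and 2.82 untreated, at 8.27, 7.47 and 8.28 with LPS, and at 7.50, 6.93 and 7.54 with LPS + Dex. LPS raised Nr4a1 by 3.71 in the WT (SE 0.31, limma adjusted p = 3.56e-06). Nr4a2 was at 0.69 and 1.40 log2 CPM in untreated WT libraries, at 2.10, 2.36 and 1.45 with LPS, and at 0.82, 1.22 and 0.50 with LPS + Dex. In the KO it was at 2.33 and 1.85 untreated, at 3.27, 2.92 and 2.87 with LPS, and at 2.02, 1.73 and 1.65 with LPS + Dex. Mice differed widely in Nr4a2, while within each mouse LPS + Dex lay below LPS. Its LPS change in the WT was 0.92 (SE 0.32, limma adjusted p = 0.104), and it passed the test with the mouse as a block (1.14, SE 0.14, limma adjusted p = 9.08e-04). Without the untreated library of mouse A it was 0.57, and without that of mouse B, against the library of mouse A alone, 1.28. Srf lay between 3.78 and 4.76 log2 CPM untreated and between 4.74 and 5.11 with LPS in the WT. Its change of 0.65 (SE 0.26, limma adjusted p = 0.134) passed with the mouse as a block (0.66, limma adjusted p = 0.0391) and depended on which untreated library was used. It was 0.16 without that of mouse A, and 1.14 without that of mouse B, against the library of mouse A alone. The exons of Srf lie within the lincRNA gene Gm26904 on the opposite strand, and the sources used here do not state whether reads were counted by strand, so its values are uncertain. With the mouse as a block, 9 of 9 members rose in the WT, against 8.61% of all genes.

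In the KO, LPS raised the same 7 members, against 2.92% of all genes, with a median change of 3.94 beside -0.01 over all genes. The rises were 6.87 for Egr1, 5.15 for Egr2, 5.17 for Egr3, 3.94 for Ier2, 3.32 for Ier3, 1.26 for Ier5 and 4.69 for Nr4a1, with limma adjusted p from 8.37e-09 for Egr1 to 0.00438 for Ier5. The call of Ier5 did not hold without the untreated library of KO mouse A (1.10, limma adjusted p = 0.0914). Nr4a2 changed by 0.93 (SE 0.32, limma adjusted p = 0.211) and passed with the mouse as a block (1.01, limma adjusted p = 0.00210). With that block 8 of 9 members rose, against 4.65% of all genes. Srf was the exception, with a change of 0.39 (SE 0.26, limma adjusted p = 1) and 0.49 with the block (limma adjusted p = 0.182).

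**Figure D2:**
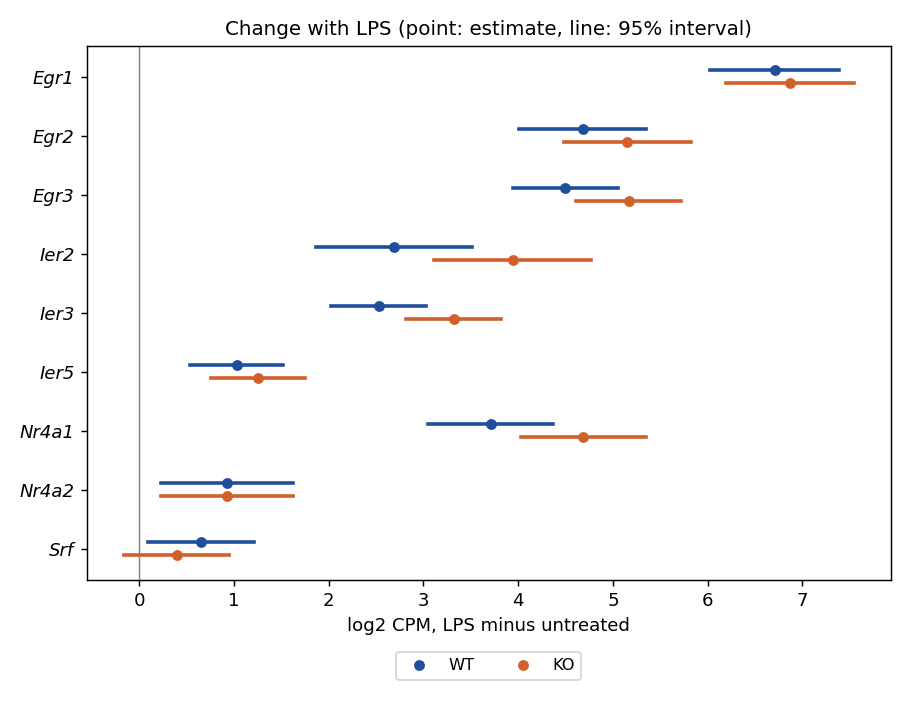
Change of each member with LPS (log2 CPM, LPS minus untreated) in WT (blue) and KO (orange), with points for the limma estimate over all 16 libraries and lines for its 95% interval. The estimates run from 6.71 and 6.87 for Egr1 to 0.65 and 0.39 for Srf, and the interval of Srf in the KO (-0.16 to 0.95) includes 0.

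The next comparison set LPS + Dex against LPS, to ask which of the induced genes Dex held down. Egr2 and Ier3 fell, and in the fit without a block these were the 2 of 9 members called in either genotype, against 0.229% of all genes called lower in the WT and 0.281% in the KO. Egr2 fell 2.84-fold in the WT (SE 0.28 on the log2 scale, limma adjusted p = 0.0246) and 3.04-fold in the KO (log2 change -1.60, SE 0.28, limma adjusted p = 0.0124). Ier3 fell by 1.35 in the WT (SE 0.21, limma adjusted p = 0.00716) and by 1.32 in the KO (SE 0.21, limma adjusted p = 0.00681), 2.55-fold and 2.50-fold. In a fit of the compared libraries alone the call of Ier3 in the WT was lost (limma adjusted p = 0.0879). The call of Egr2 in the unblocked fit did not hold when the LPS library of WT mouse A, B or C or the LPS + Dex library of WT mouse B or C was left out, with limma adjusted p from 0.0537 to 0.143. In the KO it did not hold without the LPS library of mouse A or B or the LPS + Dex library of mouse A or C, with limma adjusted p from 0.0539 to 0.0876. With the mouse as a block Egr2 passed in both genotypes (limma adjusted p = 0.0117 in the WT and 0.00704 in the KO), as did Ier3 (2.52e-04 and 2.84e-04).

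LPS and LPS + Dex libraries came from the same mice, and with the mouse as a block 5 of 9 members fell in each genotype. These were Egr2, Ier3, Ier5, Nr4a1 and Nr4a2, where 1.01% of all genes fell in the WT and 1.19% in the KO. Ier5 fell by 0.71 in the WT (blocked SE 0.09, limma adjusted p = 0.00628) and by 0.54 in the KO (limma adjusted p = 0.0200). Nr4a1 fell by 0.81 in the WT (blocked SE 0.09, limma adjusted p = 0.00236) and by 0.68 in the KO (limma adjusted p = 0.00490). Nr4a2 fell by 1.12 in the WT (blocked SE 0.12, limma adjusted p = 0.00185) and by 1.22 in the KO (limma adjusted p = 0.00109). Without the block the limma adjusted p of these 3 genes ranged from 0.0861 to 0.860, and voom without the block called Nr4a2 in the KO (adjusted p = 0.0378). The other 4 members, Egr1, Egr3, Ier2 and Srf, passed in neither fit. Their changes were -0.32 and -0.27 for Egr1 in the WT and KO (95% intervals -0.92 to 0.29 and -0.88 to 0.33), and -0.24 and -0.35 for Egr3 (-0.73 to 0.26 and -0.84 to 0.15). For Ier2 they were -0.17 and -0.23 (-0.91 to 0.58 and -0.97 to 0.51), and for Srf -0.16 and -0.25 (-0.66 to 0.34 and -0.75 to 0.25).

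In all 6 mice 8 of 9 members were lower with LPS + Dex than with LPS, as were 10.4% of all genes. The exception was Egr3, which differed by 0.12 in WT mouse A and by -0.30 to -0.43 in the other 5 mice. The size of the change differed within a family. Egr2 changed by 1.26 more than Egr1 in the same mouse (difference -1.26, SD 0.24, n = 6, negative in 6 of 6 mice; exact two-sided sign-flip permutation p = 0.0313, adjusted p = 0.0438 over 7 pairs). Egr3 changed by 1.26 less than Egr2 (SD 0.17, 6 of 6 mice, exact permutation adjusted p = 0.0438), and Egr3 and Egr1 differed by 0.004 (SD 0.19, range -0.12 to 0.38, exact permutation adjusted p = 1). In the IER family, Ier3 changed more than Ier2 (difference -1.14, SD 0.12) and Ier5 changed more than Ier2 (difference -0.43, SD 0.16), each in 6 of 6 mice. Ier5 in turn changed less than Ier3 (difference 0.71, SD 0.10), and all 3 IER pairs had an exact permutation adjusted p of 0.0438. Nr4a2 minus Nr4a1 was -0.43 (SD 0.23, negative in 5 of 6 mice, exact permutation p = 0.0625, adjusted p = 0.0729). With 6 mice the smallest p this test can give is 0.0313, and the 7 pairs were chosen after the Dex values were seen.

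**Figure D3:**
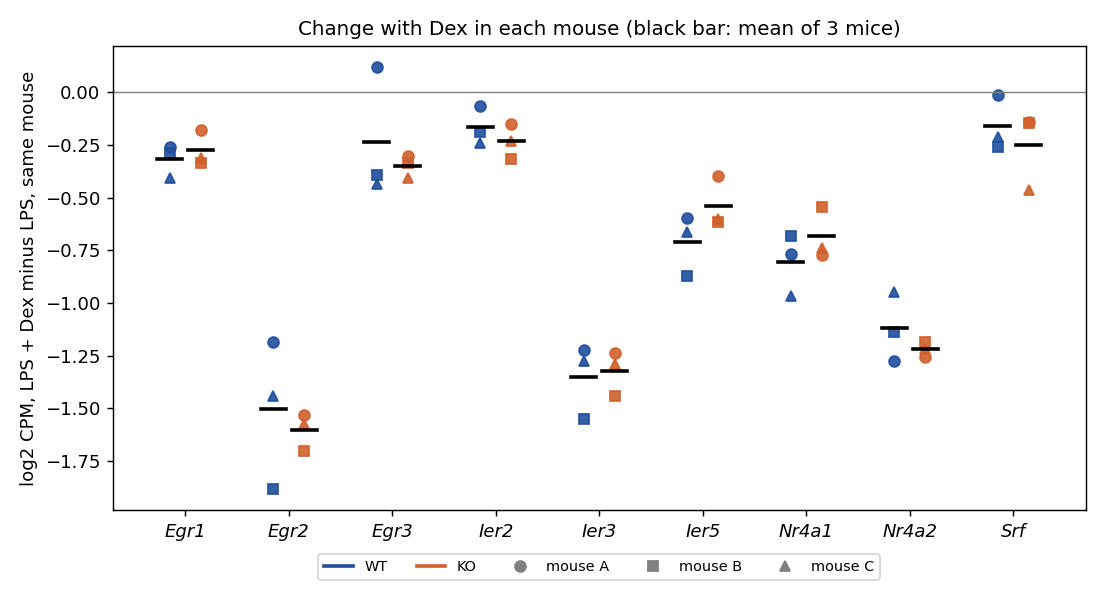
Change of each member with Dex (log2 CPM, LPS + Dex minus LPS of the same mouse), with a point for each of 3 WT (blue) and 3 KO (orange) mice and a black bar for their mean. Egr2 and Ier3 lie between -1.88 and -1.19 in all 6 mice, and the range of the WT and KO mice overlaps for each of the 9 genes.

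As a share of the CPM gained with LPS, in the 4 mice with an untreated library, Egr1 kept 79.0% to 88.5% in the presence of Dex and Ier2 kept 78.8% to 93.3%. Egr3 kept 75.1% to 109%. Nr4a1 kept 55.6% to 67.3%, Egr2 23.5% to 42.4% and Ier3 24.1% to 36.4%. Ier5 ranged from 0.985% in WT mouse B to 59.5% in KO mouse A. For Nr4a2 the share lay between -21.3% and 5.67%, so that its level with LPS + Dex was close to or below the untreated level of the same mouse. Of the stretches printed above, those with a CArG box belonged to Egr2, which fell with Dex, and to Srf, which did not pass the test. Whether this element bears on the Dex change was not tested, and windows were matched for 6 of the 9 members alone.

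Set against untreated cells, LPS + Dex left 6 of 9 members higher in each genotype, where 4.55% of all genes were higher in the WT and 3.29% in the KO. These were Egr1 (6.39 in the WT, 6.60 in the KO), Egr2 (3.18 and 3.55), Egr3 (4.26 and 4.82), Ier2 (2.52 and 3.71), Ier3 (1.18 and 2.00) and Nr4a1 (2.91 and 4.01). The call of Ier3 in the WT did not hold without the untreated library of mouse A (1.13, limma adjusted p = 0.0620). Ier5 differed by 0.32 in the WT (SE 0.23, limma adjusted p = 0.361) and by 0.72 in the KO (SE 0.23, limma adjusted p = 0.134). With the mouse as a block Ier5 was higher in the KO (0.65, limma adjusted p = 0.00668), which made 7 of 9 members against 5.23% of all genes. Nr4a2 differed by -0.20 in the WT and -0.29 in the KO (SE 0.32 each, limma adjusted p = 0.691 and 1.00). Srf differed by 0.49 in the WT and 0.14 in the KO (SE 0.26 each, limma adjusted p = 0.227 and 1.00). Without the untreated library of WT mouse B, against that of mouse A alone, the WT value was 0.98.

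The genotype comparison asked whether loss of NELF-B altered the level of these genes or their response. In untreated BMDM 0 of 9 members passed between KO and WT in limma, where 0.0104% of all genes did. Before adjustment 4 of the 9 had a p under 0.05, as did 15.2% of all genes. With the letter as a block, in a fit of the compared libraries alone, 1 of the 9 did, as did 4.12%. Voom on the recovered reads also called 0. The estimates ran from -0.88 for Egr3 (95% interval -1.48 to -0.27) and -0.86 for Egr2 (-1.60 to -0.13) to 0.63 for Ier5 (0.09 to 1.17) and 1.05 for Nr4a2 (0.29 to 1.81), with limma adjusted p of 0.324 for each of these 4. The estimate of Egr2 was -1.39 without the untreated library of WT mouse A and -0.33 without that of mouse B. Those of Egr1 and Srf changed sign without the untreated library of WT mouse A, from 0.33 to -0.34 and from 0.02 to -0.47. When the untreated library of WT mouse B was left out in its place, Egr1, Ier2 and Nr4a2 were at 0.99, -1.28 and 1.40. The WT group was then the library of mouse A alone, so no call is read from that fit.

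With LPS, 0 of 9 members passed between KO and WT in limma, where 0.146% of all genes did. The letters pair a WT with a KO mouse. Labels of each B mouse carry the same date (in the WT, the untreated library alone), those of both C mice carry an S number and no date, and the A mice are the pair that remained, with a date in the KO labels alone. A block on the letter, in a fit of the compared libraries alone, also gave 0 of 9, where 0.125% of all genes passed. Voom also called 0 of 9. Before adjustment, Ier3, Ier5, Nr4a1 and Nr4a2 had limma p of 0.0158, 0.00107, 0.0240 and 0.00291, where 6.92% of all genes were under 0.05. With the block 8 of the 9 were under 0.05 before adjustment, where 19.1% of all genes were. KO minus WT was 1.05 for Nr4a2 (SE 0.29, limma adjusted p = 0.193), 0.86 for Ier5 (SE 0.20, limma adjusted p = 0.135), 0.70 for Nr4a1 (SE 0.27, limma adjusted p = 0.502) and 0.58 for Ier3 (SE 0.21, limma adjusted p = 0.408). For Ier2 it was 0.59 and for Egr1 0.49, while Egr3, Srf and Egr2 were at -0.21, -0.24 and -0.39. All 3 KO libraries lay above all 3 WT libraries for 4 of 9 members, namely Egr1, Ier5, Nr4a1 and Nr4a2, where this held for 5.91% of all genes. Below all WT libraries were 0 of 9 members, where this held for 7.82% of all genes.

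With LPS + Dex the differences were of similar size, and 0 of 9 members passed without a block, where 0.114% of all genes did. Before adjustment 4 of the 9 had a limma p under 0.05, beside 7.93% of all genes, and with the block 8 of the 9, beside 23.8%. Voom without a block called 0. KO minus WT was 1.03 for Ier5 (SE 0.20, limma adjusted p = 0.0920), 0.95 for Nr4a2 (SE 0.29, limma adjusted p = 0.225), 0.82 for Nr4a1 (SE 0.27, limma adjusted p = 0.296) and 0.60 for Ier3 (SE 0.21, limma adjusted p = 0.323). With the letter as a block, Ier5 (limma adjusted p = 0.0484) and Ier3 (limma adjusted p = 0.0354) were higher in the KO, which is 2 of 9 members against 0.447% of all genes. These calls rest on the pairing by letter, which for A was by elimination. Ier5 also passed without a block when the LPS + Dex library of WT mouse C was left out (1.26, limma adjusted p = 0.0352). By letter, the difference of Ier3 was 0.66 in A, 0.57 in B and 0.58 in C, and that of Ier5 was 1.26 in A, 1.15 in B and 0.68 in C. Groups did not overlap, with the KO higher, for 5 of 9 members (Egr1, Ier3, Ier5, Nr4a1 and Nr4a2), beside 8.93% of all genes. With the KO lower this held for 2 of 9 (Egr2 and Egr3), beside 8.83% of all genes. The LPS and LPS + Dex libraries came from the same 6 mice, so the 2 comparisons are not independent of each other.

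**Figure D4:**
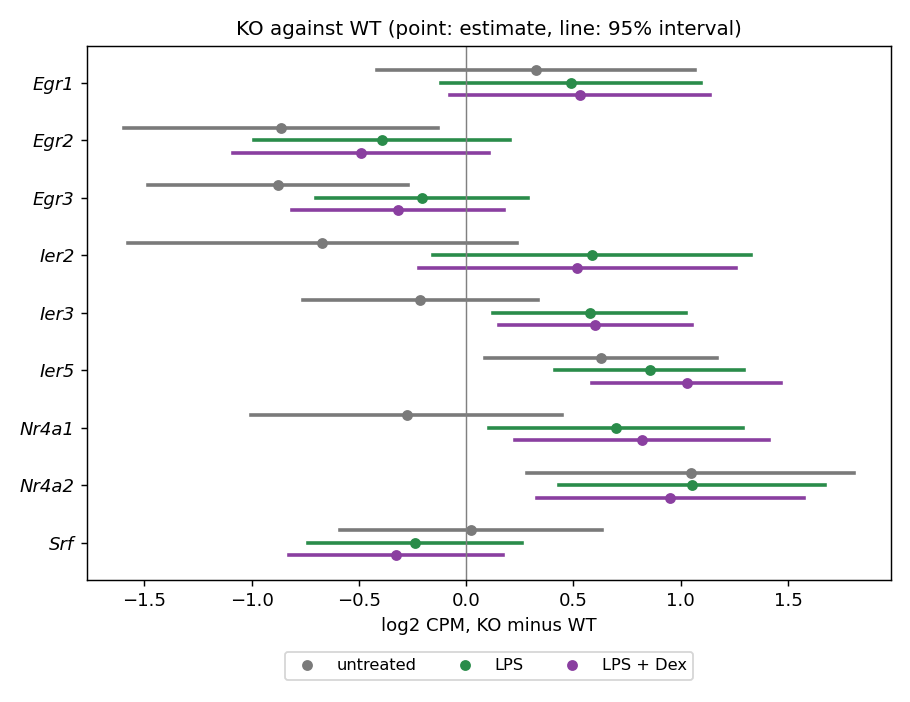
Difference between genotypes (log2 CPM, KO minus WT) in untreated (grey), LPS (green) and LPS + Dex (purple) BMDM, with points for the limma estimate over all 16 libraries and lines for its 95% interval, not adjusted for the number of genes. Ier5 and Nr4a2 lie above 0 in the 3 treatments, with estimates of 0.63 to 1.05, and Egr2 and Egr3 below 0, with estimates of -0.88 to -0.21.

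The response itself was compared between genotypes as an interaction. For the LPS change 0 of 9 members and 0% of all genes passed, both without a block and with the mouse as a block. Without a block 221 genes (2.3%) and 3 of the members had an unadjusted limma p under 0.05. With the block 396 genes (4.12%) and 4 of the members did. Voom also called 0 genes. The estimates, as the KO change minus the WT change, were 1.26 for Ier2 (95% interval 0.09 to 2.42), 0.98 for Nr4a1 (0.04 to 1.91) and 0.79 for Ier3 (SE 0.33). Each of these 3 had a limma adjusted p of 0.690. Without the untreated library of WT mouse A these estimates were 0.65, 0.94 and 0.84. Without that of WT mouse B, against the library of mouse A alone, they were 1.87, 1.01 and 0.74. For the Dex change 0 of 9 members and 0% of all genes passed, and voom called 0 genes. In limma 0 genes had an unadjusted p under 0.05 without a block and 27 genes with the mouse as a block, none of them a member. Both counts are fewer than that threshold would give over 9614 independent genes with no difference. Here the estimates of the 9 members lay between -0.11 for Egr3 (-0.81 to 0.59) and 0.17 for Ier5 (-0.45 to 0.80). For Egr2 and Ier3, the members called in both genotypes, the KO change differed from the WT change by -0.10 (-0.94 to 0.75) and 0.03 (-0.61 to 0.66). These intervals come from the fit without a block, which leaves out that LPS and LPS + Dex libraries share mice. With the mouse as a block the SE was 0.32 in place of 0.39 for Egr2 and 0.14 in place of 0.29 for Ier3.

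Other genes of the pathway were read from lists. Of 25 further immediate-early genes 23 were analysed, and LPS raised 18 of them in the WT and 18 in the KO. Among all genes, by the same rule, LPS raised 4.63% for WT cells and 2.92% for KO cells. This list had a median change of 2.02 with LPS for WT cells and 2.27 for KO cells. In the WT the largest rises were those of Csrnp1 (5.49), Maff (4.97), Dusp1, a phosphatase that inactivates MAP kinases (4.95), Zfp36, which destabilises cytokine mRNAs (4.01), and the AP-1 subunit gene Fosb (3.79). In the KO they were those of Dusp1 (5.36), Maff (5.32), Phlda1 (5.25), Csrnp1 (4.70) and Zfp36 (4.22). Ier5l went the other way, by -2.06 in the WT and -2.07 in the KO (limma adjusted p = 0.0580 and 0.0940). With the mouse as a block it was called lower in both genotypes (limma adjusted p = 0.00407 and 0.00273). Without a block Dex raised 1 of the 23, the transcription factor gene Klf4, by 1.49 in the WT and 1.52 in the KO. Of all genes 0.52% and 0.614% rose. In the same fit Dex lowered 0 of the 23 in either genotype, where 0.229% of all genes fell in the WT and 0.281% in the KO. With the mouse as a block 3 rose in each genotype, where 1.19% of all genes rose in the WT and 1.38% in the KO. By the same fit 5 fell in each genotype, where 1.01% of all genes fell in the WT and 1.19% in the KO. Among the genes called with the block were Dusp1, which rose by 0.93 in the WT and 0.89 in the KO, and Fosb, which fell by 1.19 and 1.10. Between genotypes Phlda1 was the only one of the 23 called in the fit without a block, higher in the KO by 1.56 with LPS (limma adjusted p = 0.0188) and by 1.80 with LPS + Dex (limma adjusted p = 0.00731). Of all genes 0.146% were called between genotypes with LPS and 0.114% with LPS + Dex.

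Of 8 feedback inhibitors of ERK signalling 6 were analysed, and LPS raised 3 in each genotype (list median 1.11 in the WT and 0.99 in the KO). Of all genes 4.63% rose in the WT and 2.92% in the KO. Of the inhibitors, the phosphatase gene Dusp5 rose by 3.26 in the WT and 4.02 in the KO, Dusp4 by 2.60 and 2.57, and Spry2 by 1.09 and 1.28. Without a block, 0 of 5 measured TCF and MRTF partners of SRF and 0 of 9 cytoskeletal SRF targets were called with LPS in either genotype. For lists this short, 0 is close to the share of all genes that rose, 4.63% in the WT and 2.92% in the KO. Median changes of the partners and of the targets were 0.28 and 0.22 in the WT and 0.03 and -0.03 in the KO. With the mouse as a block the cytoskeletal gene Tpm4 passed in the WT (0.58 in the unblocked fit, blocked limma adjusted p = 0.0450). The NAB corepressors bind EGR proteins and restrain them. Of these, Nab1 rose by 0.61 with LPS in the WT (limma adjusted p = 0.0424) and was not called in the KO (0.21, limma adjusted p = 1). Nab2 changed by -0.60 with Dex in the WT and by -0.72 in the KO, and fell by the blocked fit (limma adjusted p = 0.0113 and 0.00391). Of the RXR genes, whose products pair with NR4A receptors, Rxra and Rxrb were analysed and neither was called in any comparison.

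Among the 9582 other genes with a mean over 1 log2 CPM, the likeness of each pattern was measured as Pearson's r of log2 CPM over the 16 libraries, which share mice and treatments. The nearest to Egr1 were Cxcl2 (0.996), Tnfaip3 (0.995) and Socs3 (0.990), and the nearest to Egr3 was Ppp1r15a (0.986). Egr2 was nearest to Il1a (0.976) and Tnf was in its first 3 (0.971). Ier2 was nearest to Rab20 (0.977), Ier3 to Mxd1 (0.979) and Nr4a1 to Pim1 (0.986). Ier5 was nearest to the heat-shock gene Hspa1b (0.939) and Brd2 (0.919), Nr4a2 to B4galt5 (0.900), and Srf to Spred2 (0.952). Among the members themselves r ranged up to 0.979 between Egr1 and Egr3, and was 0.279 between Egr1 and Nr4a2 and 0.165 between Egr3 and Nr4a2.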

How the data were processed

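RNA-seq (polyA-selected RNA, paired reads of 50 bases, mm10) was analysed in 16 BMDM libraries from 6 mice. The authors counted exon reads per gene, normalised them by trimmed means in edgeR and deposited the log2 CPM of 9614 genes. The filter behind these genes and the tool versions are not given in the sources used here, apart from CASAVA 1.8 in the submitters' processing notes. In the deposited table, 18 further columns hold p-values and FDR of the authors' own comparisons, which were not used. A further list of signalling genes is not reported here. The members and lists were chosen with earlier results of these data known. Groups and mice were taken from the labels. The letters were assigned here from dates and S numbers in the labels, and for the A pair by elimination.

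The deposited log2 CPM of all 16 libraries were fitted per gene with lmFit and eBayes (trend) in limma 3.58.1 under R 4.3.3, with 6 groups, no block and Benjamini-Hochberg adjustment over 9614 genes. An adjusted p under 0.05 was called. No pseudocount or further filter was used. The planned edgeR and DESeq2 fits were not run, since the deposited unit is log2. The values rise from a floor of -5.15 in equal CPM steps, and with 1 step taken as 1 read, 100.0% of values under 3 CPM came out whole within 0.1. Reads recovered this way were used with voom, which was chosen after seeing the data. A depth of 3 reads is 0.065 to 0.136 CPM, and such floors cover counting error only.

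The block was the mouse for treatment comparisons, as libraries of a mouse share its animal number in the labels, and the letter for genotype comparisons. Fits with the mouse used all 16 libraries, and fits with the letter used those of the compared groups alone. Deviations from group means correlated at 0.185 to 0.939 over 14 pairs of libraries of 1 mouse and at 0.351 to 0.760 over 8 WT and KO pairs of 1 letter. With 2 untreated libraries per genotype, the deviations of A and B mirror each other, so their untreated pairs share the value 0.351. Pairs of different letters are not given for comparison. Pairs within a family were compared with an exact sign-flip permutation test over mice. The limma steps were tested on simulated data. From each list up to 5 called genes with the largest change were named, and the 3 genes with the highest r to each member. Gene positions and exon lengths are from GENCODE vM21 and promoter windows from RefSeq (GRCm38.p6). Alternatives were the block, the compared libraries alone, log2(CPM + 1), a mean over 1 log2 CPM, median centring, an adjusted p under 0.1, a change over 1.5-fold, voom and leaving out each library. Other statistics used scipy 1.17.1, pandas 2.3.3 and numpy 2.4.6 under Python 3.11.15.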

Additional observations from a re-analysis of the deposited data

How the results depend on the processing

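Over 2475 readings of a member in a comparison under other settings, 2417 kept the direction and the side of the threshold or stayed uncalled. Of the others 18 lost a call, 40 gained one and 0 called changes turned direction. Of the 2417, 1561 came from leaving out 1 library, also where it lay outside the comparison and the estimate could not move. The settings of an adjusted p under 0.1 and of 1.5-fold read the main fit again at another threshold. With the mouse or letter as a replicate block, 5 of 9 members passed for Dex in the WT and 5 in the KO instead of 2, and 2 instead of 0 for KO against WT with LPS + Dex. Fits with the letter also used the compared libraries alone. Voom with the block gave the same counts, 5, 5 and 2. In all, the block gained 12 calls and lost 0, and outside the values given in the report it changed no other call of a member. With the compared libraries alone 1 member passed for Dex in the WT, where Ier3 lost its call, and in the WT Ier2 and Ier5 lost theirs for LPS (adjusted p = 0.0593 and 0.259) and Ier2 and Ier3 for LPS + Dex against untreated (0.0707 and 0.0948) in limma, and at an adjusted p under 0.1, 1 passed for KO against WT with LPS + Dex. In those settings and the filter, pseudocount, centring and 1.5-fold settings, the other member counts stayed within 1.5 times of those reported. Leaving out 1 library gave 6 to 9 members for the LPS change of the WT, 6 to 7 for that of the KO, 1 to 2 for Dex in the WT, 1 to 3 in the KO, 5 to 7 for LPS + Dex against untreated in the WT and 6 in the KO. It gave 0 to 3 for KO against WT untreated, 0 with LPS, 0 to 1 with LPS + Dex, 0 to 1 for the genotype difference in the LPS change and 0 in the Dex change. The counts over all genes moved more. Without and with the block they were 664 and 1326 for the WT LPS change, 386 and 704 for that of the KO, 72 and 211 for Dex in the WT, 86 and 247 in the KO, 614 and 1241 for LPS + Dex against untreated in the WT, 420 and 750 in the KO, 1 and 3 for KO against WT untreated, and 11 and 59 with LPS + Dex. With the compared libraries alone they were 139 for LPS, 37 for Dex and 103 for LPS + Dex against untreated in the WT, 131 for Dex in the KO, and 0 for KO against WT in each treatment. At an adjusted p under 0.1 they were 1179 for LPS and 995 for LPS + Dex against untreated in the WT, and 38 and 30 for KO against WT with LPS and with LPS + Dex. Leaving out the untreated library of WT mouse B left the WT untreated group with the library of mouse A alone, which stood apart. Counts over all genes were highest in that fit for the comparisons that use untreated WT libraries, and the cause was not tested. The upper ends of the member ranges for these comparisons came from the same fit, so they rest on 1 library. The edgeR and DESeq2 fits planned on recovered reads were not run. With 2 untreated libraries per genotype, comparisons with untreated cells rest on few samples, and Egr3 and Nr4a2 on few reads.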
